A study of Mus musculus with 14 samples.

Results

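The expression of 9 transporter genes of the organic anion and organic cation family SLC22 was followed in mouse kidney before and after renal ischemia/reperfusion injury (IRI): Slc22a2, Slc22a4, Slc22a5, Slc22a6, Slc22a7, Slc22a8, Slc22a12, Slc22a13 and Slc22a19. These 9 of the 24411 genes counted were chosen by symbol, with earlier results of these data known. All 9 had enough reads to be tested among 14300 genes. Bulk RNA sequencing was performed on kidneys of male C57/B6 mice 8 weeks of age, with 4 libraries at day 0, 5 libraries at day 1 and 5 libraries at day 3 after IRI. The labels call each library by its day only, and whether the day 0 mice had a sham operation was not given in the sources used here. All groups share the strain, sex and age, and no gene was deleted or knocked down in them. Levels are given as CPM, the reads on a gene relative to all reads on genes of the library, scaled between libraries by TMM, and a change was called at an adjusted p under 0.05 in edgeR's quasi-likelihood test. The labels do not say whether libraries of a day came from separate mice, so the p-values measure the spread between these libraries.

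SLC22 proteins move charged small molecules across cell membranes and are best known in the kidney for the secretion of drugs, toxins and metabolites by the proximal tubule. Organic anion transporters (OATs) on the blood side of the tubule cell take up anions in exchange for dicarboxylates, organic cation transporters (OCTs) take up cations, and relatives on the urine side reabsorb urate or exchange other anions. The OCTN branch carries zwitterions such as carnitine, which cells need to bring long-chain fatty acids into mitochondria. In bulk RNA, fewer cells of a type and less RNA per cell cannot be told apart.

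One further property of the libraries bears on the results. The number in a library's name has 1 digit in some libraries and 3 digits in others, and the labels do not say what this marks. All day 0 libraries have 1 digit. At day 1 replicates 1 and 2 have 3 digits and replicates 3, 4 and 5 have 1 digit, while at day 3 replicates 1, 2 and 3 have 3 digits and replicates 4 and 5 have 1 digit. Reads on genes ranged from 12485579 to 20476979 per library. As a check of the tissue, the summed level of 10 proximal tubule markers was 13626 to 15910.1 CPM at day 0. At day 1 the 3-digit libraries had 2569 to 3506 CPM and those with 1 digit 9214 to 13888 CPM. At day 3 this order was turned round, with 4955 to 14290.4 CPM for 3 digits and 2045 to 3031 CPM for 1 digit. Of the 10 markers, 3 were called lower at day 1 and 3 at day 3 (median log2 fold changes -0.83 and -1.10), beside 18.7% and 13.8% of all genes, and none was at 0 in any library. Of 5 tubular injury markers, 4 rose at each day, and their sum went from 100.03 to 135 CPM at day 0 to 899 to 5579 CPM at day 1 and 969.8 to 4560.3 CPM at day 3. The part of cell makeup in the results that follow was not tested.

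Slc22a8 and Slc22a6 lie next to each other on chromosome 19 in the GRCm38 (mm10) build, on the same strand, at chr19:8591254-8611835 and chr19:8618039-8628299, with 6203 bases and no other protein-coding gene between them. Their levels diverged after IRI, as described further on, so the 250 bases before the RefSeq start site of each are given here from RefSeq (GRCm38.p6, plus strand, 5′ to 3′), all in lower case. The windows are chr19:8617746-8617995 for Slc22a6 and chr19:8592932-8593181 for Slc22a8. The RefSeq start sites differ from the ends of the gene spans above, and the Slc22a8 window lies inside its span, downstream of the first annotated base.
Slc22a6: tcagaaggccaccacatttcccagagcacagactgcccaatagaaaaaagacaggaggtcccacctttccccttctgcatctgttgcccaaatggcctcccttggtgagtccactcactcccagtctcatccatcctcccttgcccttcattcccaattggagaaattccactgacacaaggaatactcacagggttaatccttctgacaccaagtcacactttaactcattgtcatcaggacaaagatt
Slc22a8: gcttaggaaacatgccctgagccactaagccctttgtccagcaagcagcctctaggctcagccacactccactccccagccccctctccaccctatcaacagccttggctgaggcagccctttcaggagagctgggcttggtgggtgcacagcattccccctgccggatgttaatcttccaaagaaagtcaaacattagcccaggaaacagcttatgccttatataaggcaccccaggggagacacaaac

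At day 0 the 9 genes spanned a wide range. Per kilobase of exon, Slc22a12 had the highest level (719 ± 45.5 CPM per kilobase, mean ± SD, n = 4), followed by Slc22a6 (316 ± 29.9), Slc22a2 (199 ± 10.3), Slc22a8 (129.8 ± 16.9), Slc22a7 (111 ± 27.8), Slc22a5 (107 ± 10.4), Slc22a19 (48.7 ± 5.21), Slc22a13 (48.6 ± 4.64) and Slc22a4 (26.6 ± 1.8). The range of Slc22a7 overlapped those of Slc22a8 and Slc22a5, the ranges of Slc22a19 and Slc22a13 overlapped, and the steps between the other neighbours exceeded the spread over libraries. At day 3 Slc22a12 (306 ± 206, n = 5) and Slc22a6 (257 ± 35.7) were still the highest by their means, with ranges that overlapped. Slc22a7 had moved from the fifth place to the eighth, at 0.671 ± 0.351 CPM per kilobase, and Slc22a19 was the last at 0.624 ± 0.653. The order of means at day 3 among the lower genes was Slc22a4 (13.4 ± 4.77), Slc22a13 (2.11 ± 2.35), Slc22a7 and Slc22a19, and the last 3 overlapped.

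**Figure D1:**
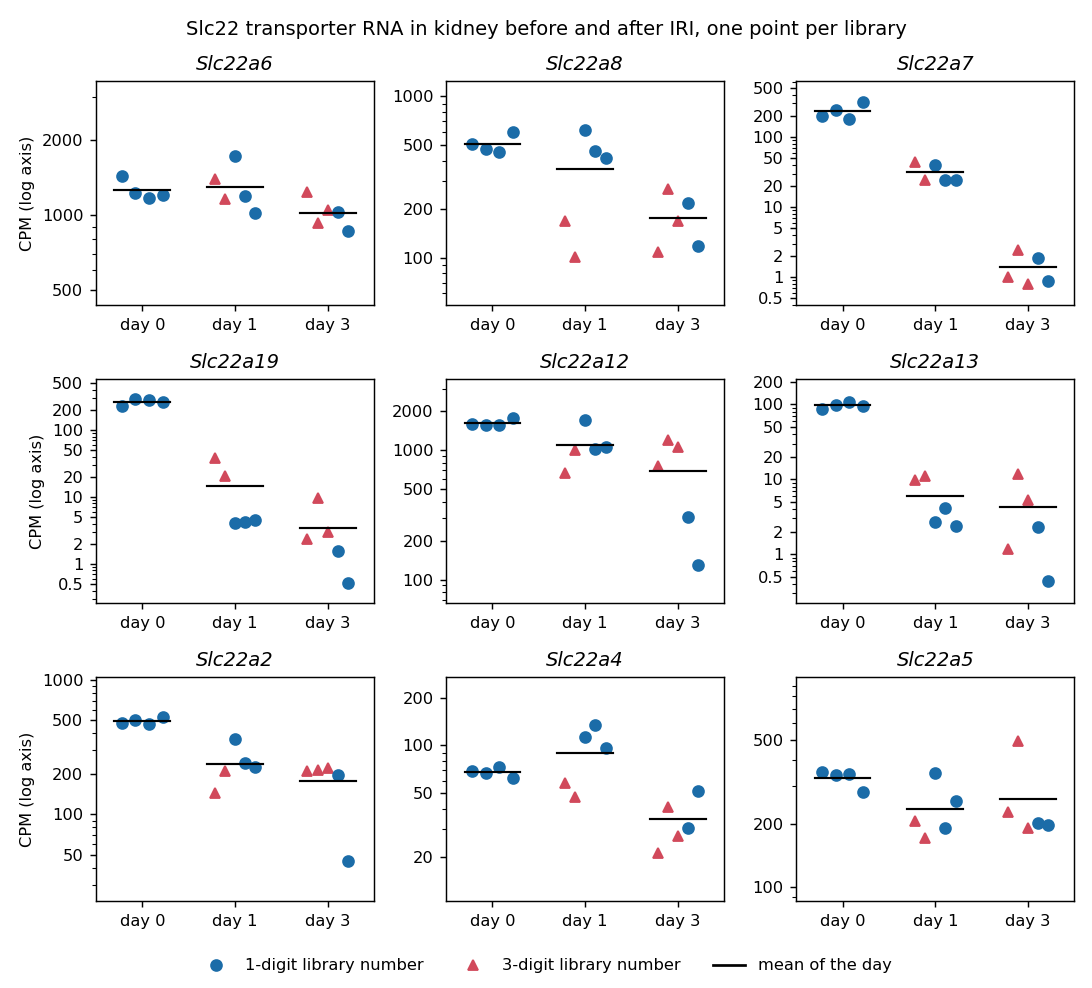
CPM of each of the 9 transporter genes on log axes with a scale of its own per panel, one point per library at day 0, day 1 and day 3, circles for 1-digit and triangles for 3-digit library numbers, with black lines for the mean of each day. Slc22a6 stayed between 866 and 1734 CPM in all libraries, while Slc22a2, Slc22a7, Slc22a13 and Slc22a19 were lower in every library of days 1 and 3 than in any library of day 0.

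Compared with day 0, 4 of the 9 genes fell at day 1, namely Slc22a2, Slc22a7, Slc22a13 and Slc22a19, and the other 5 did not pass the test. Of all genes tested, 18.7% were called lower at day 1. The same 4 genes were the ones whose day 1 values all lay below those of day 0, a pattern held by 20.5% of all genes. At day 3, 6 of the 9 fell against day 0, with Slc22a4 and Slc22a8 added to these 4, against 13.8% of all genes called lower. The day 3 values of 7 genes, the 6 and Slc22a12, all lay below the day 0 values, compared with 16.5% of all genes. The median log2 fold change of the 9 was -0.57 at day 1 and -1.48 at day 3, beside 0.01 and 0.05 over all genes tested. Both comparisons use the same day 0 libraries. Between day 1 and day 3, 2 genes fell, Slc22a4 and Slc22a7, with 7.39% of all genes called lower.

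Markers of other kidney cells were examined too. Over all genes, 23.3% were called higher and 18.7% lower at day 1, and 19.5% and 13.8% at day 3. Of 6 markers of the thick limb and distal tubule, 3 fell at day 1 and 5 at day 3, with median log2 fold changes of -0.48 and -1.80. Their sum was 6504 to 9416 CPM at day 0 and 2136 to 3426 CPM at day 3. Of 5 collecting duct markers 1 fell at day 1 and 3 fell at day 3 (median -0.78 at day 3), and of 4 macrophage markers 1 rose and 2 fell at day 3. The smooth muscle markers Acta2 and Tagln rose at both days, and Myh11, the other gene of that list, was called at neither. In the 1-digit libraries of day 1, 2 of the 3 were called higher and 1 lower, beside 28.9% and 29.6% of all genes. The sum of the 3 markers went from 42.6 to 72.7 CPM at day 0 to 153 to 839 CPM at day 3. At day 3 the 4 endothelial markers had log2 fold changes from 0.13 for Kdr to 0.67 for Pecam1 that did not pass the test. At day 1, 1 of the 4 was called higher. In the 1-digit libraries of day 3 all 4 were called higher (median log2 fold change 0.97), as were 4084 of 14300 genes. In the 3-digit libraries of day 3 none of them was called (median -0.10). At day 3, 1 of 4 urothelial markers fell and all 4 proliferation markers rose. The proliferation sum was 8.22 to 26.9 CPM at day 0. At day 3 it was 238 to 435 CPM in the 3-digit and 15.9 to 43.1 CPM in the 1-digit libraries. Against day 0, all 4 were called higher in the 3-digit and 2 in the 1-digit libraries, beside 2738 and 4084 of 14300 genes. The part of these cells in the Slc22 changes was not tested.

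**Figure D2:**
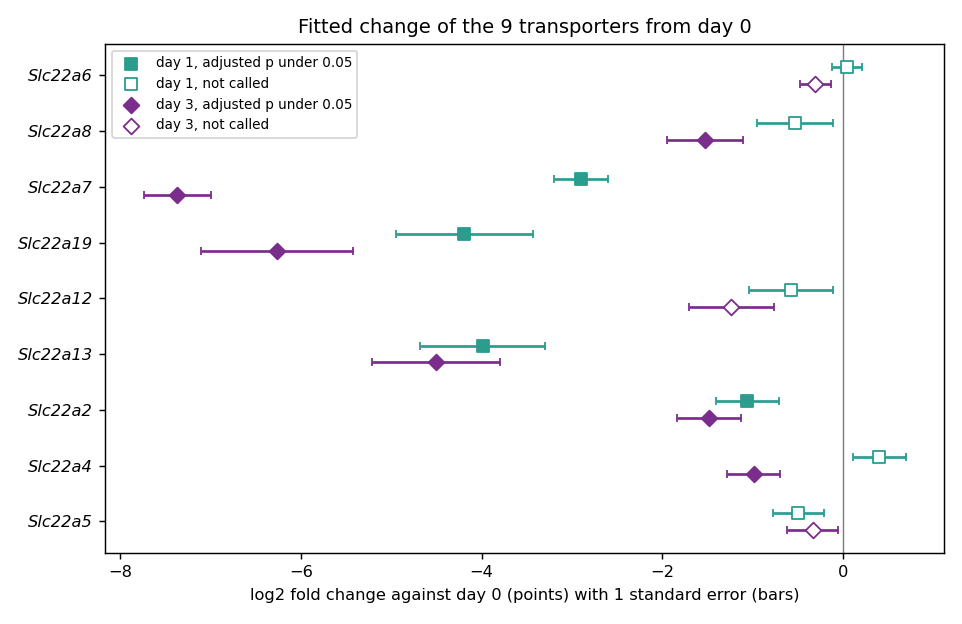
Fitted log2 fold change of each gene against day 0 (horizontal axis), squares for day 1 and diamonds for day 3, filled where the adjusted p was under 0.05, with bars of 1 standard error. The largest falls were those of Slc22a7 (-7.37 at day 3) and Slc22a19 (-6.27 at day 3), and Slc22a6 lay nearest to 0 at both days.

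Slc22a6 encodes OAT1, the classical uptake carrier of para-aminohippurate on the blood side of the proximal tubule cell. It measured 1435, 1230.2, 1173 and 1201 CPM at day 0. Day 1 gave 1403 and 1159.7 CPM in the 3-digit libraries and 1734, 1196 and 1023 CPM in those with 1 digit. Values of day 0 and day 1 overlapped. Day 3 gave 1239.9, 929 and 1047 CPM for 3 digits and 1027 and 866 CPM for 1 digit, where the highest value still lay within the day 0 range. Slc22a6 had a fitted difference on the log2 scale of 0.05 (SE 0.17, adjusted p = 0.834 in edgeR's test) at day 1 and -0.30 (SE 0.17, adjusted p = 0.18) at day 3, and the mean at day 3 was 81.1% of that at day 0. Over the libraries of days 1 and 3, Slc22a6 ranged from 68.8% to 138% and the sum of the proximal tubule markers from 13.9% to 97.1% of the day 0 mean. In day 3 replicate 5, which had the lowest marker sum (13.9% of the day 0 mean), Slc22a6 stood at 68.8% of its day 0 mean. In day 1 replicate 3 and day 3 replicate 2, where the marker sum was at 94.3% and 97.1%, Slc22a6 stood at 138% and 73.8%.

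Slc22a8 encodes OAT3, the second large-capacity anion carrier on the blood side. Its day 0 values were 508, 471, 451 and 600.5 CPM. At day 1 it split by library format, with 168 and 101 CPM in the 3-digit libraries and 622, 458 and 416 CPM in the 1-digit libraries. The 1-digit libraries overlapped day 0 and the 3-digit libraries lay below it. At day 3 all libraries were low, with 109, 268 and 168 CPM for 3 digits and 219 and 118 CPM for 1 digit, and none reached the day 0 range. Slc22a8 had a log2 fold change of -0.52 at day 1 (SE 0.42, adjusted p = 0.328) and -1.53 at day 3 (SE 0.42, adjusted p = 0.0143), a fall to 34.7% of the day 0 mean. With number format as a term the day 3 value was -0.91 (adjusted p = 0.136). This term takes a single format difference for all days, and for Slc22a8 that difference was not the same at both days, as given below. In the fit of all libraries with 1 term per day and format, each format was called against day 0 at day 3. The values were -1.48 (adjusted p = 0.00279) for the 3-digit and -1.59 (adjusted p = 0.00253) for the 1-digit libraries.

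The levels of these adjacent genes per kilobase were compared within each library. Slc22a6 had 2.77, 2.56, 2.55 and 1.96 times the level of Slc22a8 at day 0. The ratio was 8.2 and 11.3 in the 3-digit libraries of day 1 and 2.73, 2.56 and 2.41 in its 1-digit libraries, so only the former stood above day 0. At day 3 it was 11.2, 3.41 and 6.11 in the 3-digit and 4.61 and 7.19 in the 1-digit libraries, all above the day 0 values. The pair was singled out with the values known, and no test was made of the ratio.

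Slc22a7 encodes OAT2, an anion carrier of kidney and liver. The gene is at chr17:46432183-46438457, minus strand. Its day 0 values were 201, 240.4, 181 and 313 CPM. The day 1 values were 43.9 and 24.7 CPM with 3 digits and 39.8, 24.2 and 24.7 CPM with 1 digit. The formats overlapped here and every value was far below day 0. The day 3 values were 1.02, 2.48 and 0.792 CPM with 3 digits and 1.88 and 0.881 CPM with 1 digit, which rest on 12 to 44 reads per library. The 3 days did not overlap. Relative to day 0, Slc22a7 had log2 fold changes of -2.90 at day 1 (SE 0.30, adjusted p = 1.97e-05) and -7.37 at day 3 (SE 0.37, adjusted p = 9.07e-08), falls to 13.4% and 0.604% of the day 0 mean. From day 1 to day 3 it fell by a further 4.48 on the log2 scale (SE 0.33, adjusted p = 1.83e-05). The day 3 mean was 1.43 CPM with 3 digits and 1.38 CPM with 1 digit, a log2 difference of 0.01 (SE 0.57, adjusted p = 0.99).

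Slc22a19 encodes OAT5, a rodent carrier of sulfated steroids in the late, S3 part of the proximal tubule. Its gene spans chr19:7673061-7711310, minus strand. The day 0 values were 226, 289.9, 280.4 and 262 CPM. By day 1 the 3-digit libraries had 38.7 and 20.5 CPM and the others 4.09, 4.17 and 4.58 CPM, so the formats did not overlap and the 3-digit libraries were the higher. By day 3 the 3-digit libraries had 2.39, 9.52 and 2.97 CPM and the others 1.55 and 0.514 CPM, again without overlap. Slc22a19 thus had log2 fold changes of -4.19 at day 1 (SE 0.76, adjusted p = 0.000877) and -6.27 at day 3 (SE 0.84, adjusted p = 0.000171), falls to 5.48% and 1.3% of the day 0 mean. The step from day 1 to day 3 was -2.08 (adjusted p = 0.0608) and was not called. It passed with number format as a term (-2.38, adjusted p = 0.00149), by DESeq2 (-2.10, adjusted p = 0.03), with either format alone (-2.03 for 1 digit and -2.59 for 3 digits) and without day 3 replicate 2 (-2.92, adjusted p = 0.0177), and without day 1 replicate 1 it was -1.30 (adjusted p = 0.167). The lowest library, day 3 replicate 5, rests on 7 reads.

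Slc22a12 encodes URAT1, which reabsorbs urate from the urine side of the cell. The gene is at chr19:6535845-6543032, minus strand, and shares 682 exonic bases with Nrxn2 on the other strand, from which the strand column separates its reads. The day 0 values were 1594, 1556, 1579 and 1779.6 CPM. Day 1 gave 667 and 1000.1 CPM with 3 digits and 1709, 1029 and 1066 CPM with 1 digit, and only replicate 3 reached the day 0 range. At day 3 the 3-digit libraries measured 762, 1198 and 1067 CPM and the 1-digit libraries 306 and 131 CPM, all below day 0. Slc22a12 had a log2 fold change of -0.57 at day 1 (SE 0.47, adjusted p = 0.338) and -1.23 at day 3 (SE 0.47, adjusted p = 0.0571), neither of which was called. The day 3 value passed with number format as a term (-1.90, adjusted p = 0.0241), by DESeq2, without day 3 replicate 2 (-1.52, adjusted p = 0.023) and without day 3 replicate 3 (-1.48, adjusted p = 0.0391). The format term takes a single format difference for all days, and for Slc22a12 that difference was not the same at both days, as given below. It also passed in fits with 1 format of days 1 and 3 alone, at -2.88 (adjusted p = 0.000104) with 1-digit and -0.69 (adjusted p = 0.0201) with 3-digit libraries.

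Slc22a13 encodes OAT10, a carrier of nicotinate and urate on the urine side. Its gene spans chr9:119192974-119209098, minus strand, and 36.0% of its 50-base words also occur in the pseudogene Slc22a13b-ps, so its counts of uniquely mapped reads are uncertain in that share. The day 0 values were 87.0, 99.2, 109 and 93.6 CPM. Day 1 values were 9.86 and 11.2 CPM for 3 digits and 2.66, 4.12 and 2.41 CPM for 1 digit, without overlap between formats. Day 3 values were 1.17, 11.9 and 5.3 CPM for 3 digits and 2.29 and 0.441 CPM for 1 digit, which did overlap. Against day 0 the log2 fold change was -3.99 at day 1 (SE 0.69, adjusted p = 0.00067) and -4.51 at day 3 (SE 0.71, adjusted p = 0.00049), falls to 6.31% and 4.4% of the day 0 mean. The difference between day 1 and day 3 was -0.52 (SE 0.64, adjusted p = 0.61). Slc22a13b-ps fell as well, from 1.78 CPM at day 0 to 0.443 CPM at day 3 (log2 fold change -1.99, adjusted p = 0.00179).

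Slc22a2 encodes OCT2, the main uptake carrier of organic cations such as metformin on the blood side. The gene is at chr17:12584132-12628488, plus strand. The day 0 values were 480.2, 499.9, 467 and 526 CPM. At day 1 the values were 145 and 211 CPM with 3 digits and 366, 242 and 224 CPM with 1 digit, all below day 0. At day 3 the values were 209, 215 and 222 CPM with 3 digits and 195 and 45.1 CPM with 1 digit, and replicate 5 stood apart from the other 4. Slc22a2 had a log2 fold change of -1.05 at day 1 (SE 0.35, adjusted p = 0.0272) and -1.48 at day 3 (SE 0.35, adjusted p = 0.00656), and without day 3 replicate 5 the latter was -1.22 (adjusted p = 0.00131). The day 1 call is a narrow one. It was lost on leaving out any one of day 0 replicates 1, 2 and 4 and day 1 replicates 1, 4 and 5, with adjusted p from 0.0501 to 0.0572. It was also lost with the replicate block (-0.87, adjusted p = 0.0813) and with 1-digit libraries alone (-0.80, adjusted p = 0.0926).

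Slc22a4 encodes OCTN1, a carrier of ergothioneine. Its gene spans chr11:53983123-54028090, minus strand. The day 0 values were 69.3, 67.0, 73.0 and 62.0 CPM. Slc22a4 split at day 1, with 58.4 and 47.5 CPM in the 3-digit libraries, below day 0, and 113, 135 and 95.9 CPM in those with 1 digit, above day 0. By day 3 it had 21.0, 41.3 and 27.1 CPM with 3 digits and 30.5 and 51.6 CPM with 1 digit, all below day 0. The fitted change was 0.41 on the log2 scale at day 1 (SE 0.30, adjusted p = 0.282) and -0.99 at day 3 (SE 0.30, adjusted p = 0.0203), where leaving out day 0 replicate 3 gave an adjusted p of 0.0518 and number format as a term gave -0.52 (adjusted p = 0.105). With that term the day 1 value was 0.64 and passed (adjusted p = 0.0273). From day 1 to day 3 it fell by 1.39 on the log2 scale (SE 0.28, adjusted p = 0.00767).

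Slc22a5 encodes OCTN2, the sodium-dependent carnitine carrier that recovers carnitine from the urine. The gene is at chr11:53864542-53891660, minus strand, and 26.1% of its 50-base words also occur in its paralog Slc22a21, so its counts are uncertain in that share. The day 0 values were 350.5, 340.0, 345 and 282 CPM. Day 1 gave 206 and 171 CPM with 3 digits and 346, 190.1 and 257 CPM with 1 digit. Day 3 gave 227, 494 and 191 CPM with 3 digits and 201 and 196 CPM with 1 digit. Day 1 replicate 3 reached the day 0 range, and day 3 replicate 2 was the highest of all 14 libraries. Slc22a5 had a log2 fold change of -0.49 at day 1 (SE 0.28, adjusted p = 0.17) and -0.33 at day 3 (SE 0.28, adjusted p = 0.377). Day 3 replicate 2 decided the day 3 value, which was -0.69 without it (adjusted p = 0.0127), and the day 1 value was then called too (adjusted p = 0.042). That library also had the largest proximal tubule marker sum of day 3.

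Within day 1, 4 of the 9 genes differed between the library formats, in both directions. Slc22a8 (log2 difference of the 3-digit minus the 1-digit libraries -1.89, adjusted p = 0.00259) and Slc22a4 (-1.12, adjusted p = 0.00738) were lower in the 3-digit libraries, in which 16.4% of all genes were called lower. Slc22a19 (2.79, adjusted p = 0.000929) and Slc22a13 (1.76, adjusted p = 0.0405) were higher there, as were 18.6% of all genes. At day 3, Slc22a12 (2.21, adjusted p = 0.00398) and Slc22a19 (2.23, adjusted p = 0.0282) were higher in the 3-digit libraries, with 10.3% of all genes called higher. The groups hold 2 or 3 libraries each, so single libraries weigh much. Without day 1 replicate 2 the Slc22a4 difference was not called (adjusted p = 0.0883), the Slc22a13 difference was lost on leaving out any one of 9 libraries and by DESeq2 (1.74, adjusted p = 0.0638), and without day 3 replicate 5 neither gene was called at day 3. Without day 3 replicate 2 the day 3 difference of Slc22a19 was also lost, and without day 3 replicate 4 the count rose to 4. Over all genes the calls at day 3 rested on the same library, with 1470 higher and 1175 lower, but 49 higher and 42 lower without day 3 replicate 5.

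**Figure D3:**
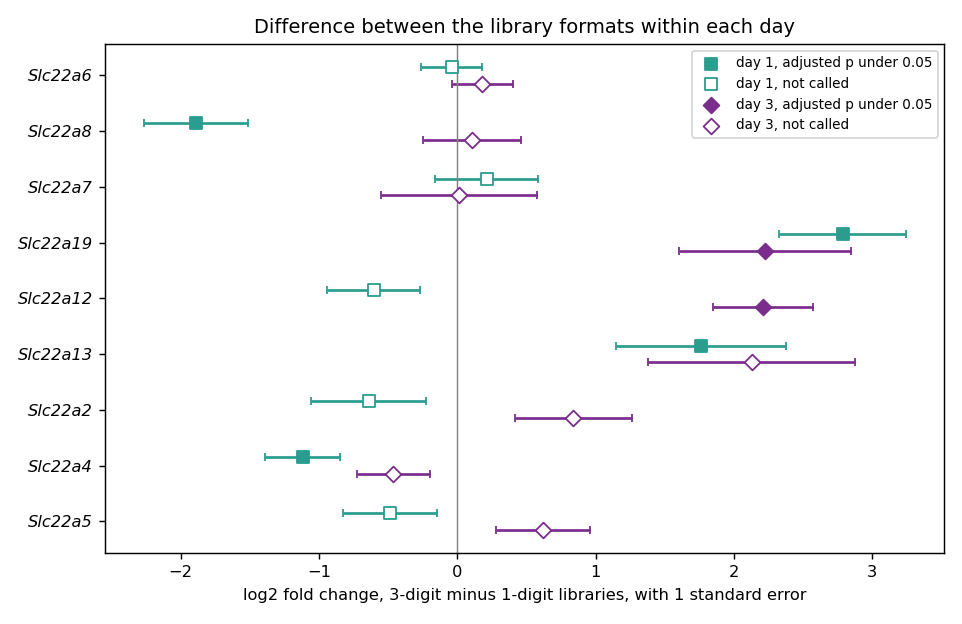
Log2 difference of the 3-digit minus the 1-digit libraries (horizontal axis) for each gene, squares for day 1 and diamonds for day 3, filled where the adjusted p was under 0.05, with bars of 1 standard error. Slc22a8 was lower in the 3-digit libraries at day 1 (-1.89) and Slc22a12 higher at day 3 (2.21), while Slc22a19 was higher at both days (2.79 and 2.23).

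Slc22a8 and Slc22a12 were the 2 of the 9 genes whose format difference itself differed between the days, by -1.998 (SE 0.51, adjusted p = 0.018) and -2.81 (SE 0.49, adjusted p = 0.00279) for day 1 minus day 3, in the direction taken by 9.1% of all genes and by 7 of the 13 other Slc22 genes tested. The Slc22a8 call was lost without day 1 replicate 2 (-1.68, adjusted p = 0.0796) and without day 3 replicate 5 (-1.60, adjusted p = 0.0709). The proximal tubule markers also differed by format, and for 9 of 10 this difference was called lower at day 1 than at day 3 (median -3.16). Of the 10 markers, 6 were lower in the 3-digit libraries at day 1 (median log2 difference -1.79, with 16.4% of all genes lower) and 6 were higher in them at day 3 (median 1.69, with 10.3% of all genes higher). The sum of the smooth muscle markers Acta2, Myh11 and Tagln took the opposite order, with 314 to 387 CPM for 3 digits and 95.9 to 161 CPM for 1 digit at day 1, and 153 to 255 CPM for 3 digits and 594 to 839 CPM for 1 digit at day 3. Neither Slc22a8 (-1.89 and 0.11) nor Slc22a12 (-0.60 and 2.21) had a called difference at both days, and the part of the markers in the Slc22 differences was not tested. What the format marks cannot be told apart from the kidneys that carry it.

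Each format was also set against day 0, whose libraries all have 1 digit. In the 1-digit libraries of day 1, 3 of the 9 genes fell (Slc22a7, Slc22a13 and Slc22a19) and Slc22a4 rose by 0.76 on the log2 scale (SE 0.22, adjusted p = 0.00898), with 29.6% of all genes called lower and 28.9% higher. In the 3-digit libraries of day 1, 6 fell (Slc22a2, Slc22a7, Slc22a8, Slc22a12, Slc22a13 and Slc22a19), with 19% of all genes called lower. Slc22a8 was at -1.92 (adjusted p = 0.0013) there. At day 3, 7 fell in the 1-digit libraries, all but Slc22a5 and Slc22a6, beside 25.1% of all genes, and 6 fell in the 3-digit libraries, all but Slc22a5, Slc22a6 and Slc22a12, beside 13.3%. In fits that leave the other format out altogether, Slc22a5 was also called in the 1-digit (-0.71, adjusted p = 0.0154) and Slc22a12 in the 3-digit libraries of day 3 (-0.69, adjusted p = 0.0201). Slc22a7, Slc22a13 and Slc22a19 were called lower in all 4 of these comparisons, with log2 fold changes from -2.77 to -7.97. Slc22a6 was called in none of them, where its group means ranged from 947 to 1317 CPM against 1259.6 CPM at day 0 and the lowest adjusted p was 0.116. Among these calls Slc22a12 in the 3-digit libraries of day 1 (-0.96, adjusted p = 0.0305) was lost without day 0 replicate 1, day 0 replicate 4 or day 1 replicate 1, and Slc22a2 there without day 1 replicate 1. Slc22a4 in the 1-digit libraries of day 3 (-0.72, adjusted p = 0.03) was lost without day 0 replicate 1, day 0 replicate 3 or day 3 replicate 4 and with total counts in place of TMM (-0.60, adjusted p = 0.0721), and Slc22a2 in the 3-digit libraries of day 3 (-1.197, adjusted p = 0.0203) without day 3 replicate 1 or day 3 replicate 3.

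**Figure D4:**
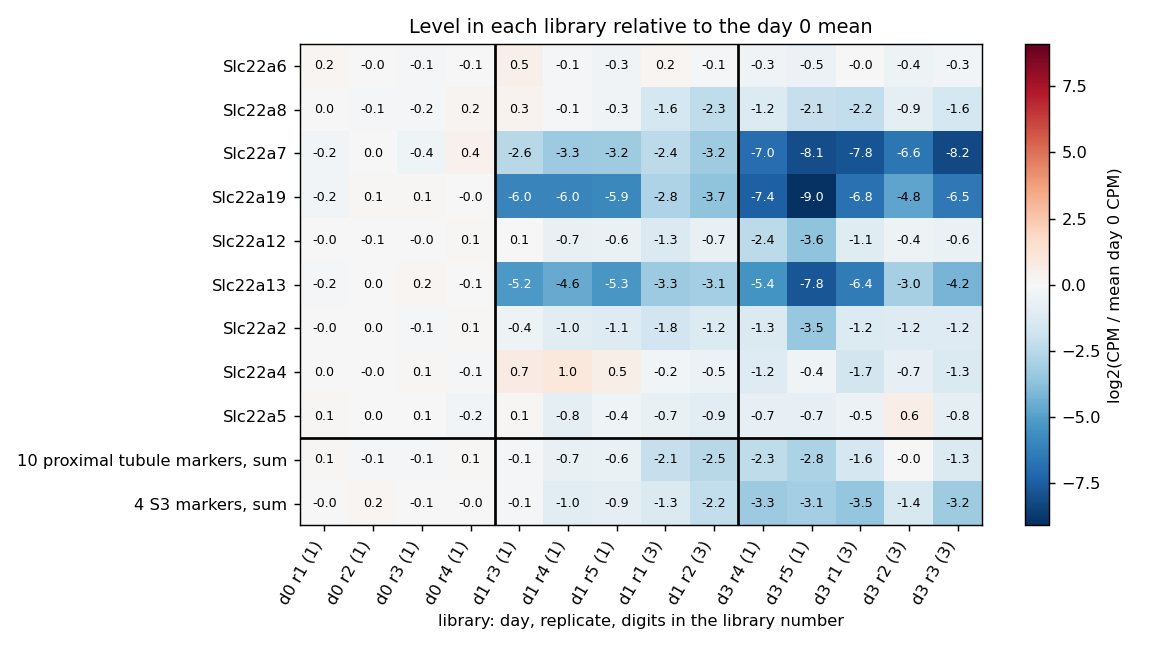
Heat map of log2(CPM divided by the mean CPM of day 0) for the 9 genes and, below the line, the summed CPM of 10 proximal tubule and 4 S3 segment markers, with libraries in columns ordered by day and by the digits in the library number (in brackets). Blue is lower than day 0 and red is higher. Slc22a6 stays pale in all columns, down to 68.8% of its day 0 mean, while the proximal tubule sum falls to 13.9%.

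Likeness to the marker sums was described by Pearson's r of log2 levels over the 14 libraries, which share day and format. Slc22a8 was most like the proximal tubule sum (r = 0.874, and 0.803 over the 10 libraries of days 1 and 3), followed by Slc22a12 (0.832 and 0.766). Over the 14 libraries Slc22a6 was the least like it (0.369), while over the 10 later ones Slc22a19 (0.147), Slc22a13 (0.27) and Slc22a7 (0.277) were less like it than Slc22a6 (0.283). Over the 14 libraries Slc22a7 was most like the sum of the S3 segment markers (0.917), and over the 10 later ones Slc22a4 (0.872) was, ahead of Slc22a7 (0.842). The level of that sum was 4071 to 4748 CPM at day 0, 910 to 4002 CPM at day 1 and 376 to 1565 CPM at day 3. All 4 S3 markers fell at day 3, with a median log2 fold change of -3.45. Among the 9 genes themselves the closest pairs were Slc22a13 with Slc22a19 (r = 0.972) and Slc22a2 with Slc22a12 (0.899), and over the 10 later libraries the order of these 2 pairs was the reverse (0.876 and 0.888).

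For each gene the 2 genes outside the family with the most similar course were taken over the 14 libraries, among 10965 genes with a mean of at least 5 CPM. They were Ccbl1 (r = 0.838) and G6pc3 (0.817) for Slc22a6, Etnppl (0.95) and Os9 (0.947) for Slc22a8, and Cyp2a4 (0.971) and Pgam2 (0.952) for Slc22a7. Slc22a19 was followed most closely by Cyp7b1 (0.989), an S3 marker, and Serpina1f (0.979). They were Fuz (0.983) and Gatb (0.975) for Slc22a12, and Ppic (0.974) and Ceacam2 (0.972) for Slc22a13. Slc22a2 went with Macrod1 (0.973) and Tmigd1 (0.96), Slc22a4 with Tspan5 (0.966) and Ubb (0.955), and Slc22a5 with C730027H18Rik (0.922) and Arvcf (0.903). The closest genes of Slc22a6 had the lowest r of the 9, in the gene with the narrowest range of levels over the libraries.

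Of 17 other Slc22 genes listed in the files, 13 were tested. At day 1, 2 rose (Slc22a15 and Slc22a21) and 2 fell (Slc22a26 and Slc22a13b-ps), and at day 3, 1 rose and 7 fell. Over all genes 23.3% were called higher and 18.7% lower at day 1, and 19.5% higher and 13.8% lower at day 3. Of the most abundant ones, Slc22a18, Slc22a28 and Slc22a30 fell at day 3 and did not pass the test at day 1 over both formats. In the 3-digit libraries of day 1 they were called lower (log2 fold changes -1.81, -3.04 and -2.56, adjusted p = 0.00126, 0.0015 and 0.000195). Of the 13, 9 were called lower and 1 higher in the 3-digit libraries of day 1, where 19% of all genes were lower. In the 1-digit libraries of day 1, 3 were called lower and 2 higher, beside 29.6% and 28.9% of all genes. Slc22a18 went from 429 ± 33.7 CPM (SD, n = 4) at day 0 to 103 ± 67.5 CPM (n = 5) at day 3 (log2 fold change -2.05, adjusted p = 0.00512). The rodent anion carriers Slc22a28 and Slc22a30 went from 231 ± 17.2 to 27.8 ± 31.7 CPM (-3.05, adjusted p = 0.0109) and from 206 ± 6.64 to 30.5 ± 27.9 CPM (-2.75, adjusted p = 0.00726). Slc22a21, the paralog next to Slc22a5, rose from 1.93 CPM at day 0 to 7.45 CPM at day 1 (1.94, adjusted p = 0.00178).

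The carriers that work beside the SLC22 proteins in secretion were called in both directions. Of 7 tested, 1 rose and 3 fell at day 1 (all genes 23.3% higher and 18.7% lower), and 2 rose and 2 fell at day 3 (all genes 19.5% and 13.8%). Slc47a1 encodes MATE1, which passes cations taken up by OCT2 on into the urine, and fell at day 1 (log2 fold change -0.84, adjusted p = 0.0112) and day 3 (-0.80, adjusted p = 0.0184). Slc13a3, the sodium-dicarboxylate carrier that feeds anion exchange, went from 845 CPM at day 0 to 433 CPM at day 1 (-0.96, adjusted p = 0.0473) and stood at 950.3 CPM at day 3 (0.17, adjusted p = 0.746). Abcc2, an efflux pump of the urine side, rose at day 3 (1.35, adjusted p = 0.00142), as did Abcc4 (0.85, adjusted p = 0.0101). Abcg2 had log2 fold changes of 0.31 and 0.50 (adjusted p = 0.379 and 0.182). Slco4c1, an anion carrier of the blood side, fell most, from 18.3 CPM to 0.154 CPM at day 1 and 0.764 CPM at day 3, and Abcb1a was the gene that rose at day 1.

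Among 7 genes of urate handling, 1 rose and 3 fell at each day, beside the same shares of all genes. Xdh, whose enzyme makes urate, was the one that rose, from 9.82 CPM at day 0 to 59.8 CPM at day 1 (2.61, adjusted p = 0.000739) and 51.7 CPM at day 3 (2.39, adjusted p = 0.00164). Pdzk1, a scaffold protein that binds URAT1, fell at day 1 (-1.53, adjusted p = 0.00943) and had a log2 fold change of -1.10 at day 3 (adjusted p = 0.054). Slc17a1 fell at both days (-0.57 and -0.76, adjusted p = 0.0268 and 0.00838), and Slc17a3 at day 3 (-1.89, adjusted p = 0.00653). Slc5a8, a monocarboxylate carrier, fell at both days, while Slc5a12 had values of -0.87 and 0.64 that did not pass the test (adjusted p = 0.271 and 0.45).

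Of 6 genes of carnitine synthesis and use, 1 rose (Slc25a20) and 1 fell (Aldh9a1) at day 1, and 3 rose at day 3. Of all genes 23.3% were called higher and 18.7% lower at day 1, and 19.5% higher at day 3. Cpt1a, which joins fatty acids to carnitine, rose at day 3 by 0.58 on the log2 scale (adjusted p = 0.0483), Slc25a20, the mitochondrial carnitine shuttle, by 1.196 (adjusted p = 0.000941), and Bbox1, which makes carnitine, by 1.90 from a low level (adjusted p = 0.00738). Aldh9a1 had -0.78 at day 1 (adjusted p = 0.0113) and -0.54 at day 3 (adjusted p = 0.0679). Cpt2 and Crat did not pass the test at either day. The carnitine carrier gene Slc22a5 did not pass it either.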

How the data were processed

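Kidney RNA of 14 libraries (4 at day 0, 5 at day 1, 5 at day 3 after IRI) was extracted with TRIzol and sequenced after Illumina TruSeq preparation. The authors trimmed reads with Trimmomatic, aligned them to mm10 with STAR and deposited counts, not normalized, of the uniquely mapped reads of each gene symbol, unstranded and for each strand. Versions, parameters and the gene annotation were not given in the sources used here. The strand column used held 98.5% to 98.7% of the strand-assigned reads. Unmapped, multiply mapped and unassigned reads (29.0% to 38.3% of a library) were left out of library sizes and tests.

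Analyses were made in R 4.3.3 with edgeR 4.0.16 (filterByExpr by day, TMM, glmQLFit with 1 term per day; for formats, 1 term per day and format), with Benjamini-Hochberg adjustment over 14300 genes. Standard errors came from the F value. On simulated day 1 counts for 14171 genes, 172 of 199 genes changed by a log2 fold change of 2 were recovered, with 14 false calls. Log2 CPM used a prior count of 2. Replicate pairs differed beyond sampling noise, so none was counted as a repeat. Deviations of same-numbered libraries of different days had correlations of -0.175 to 0.261 (median 0.056). Those of other pairs were -0.499 to 0.534 (median -0.005), so numbers were not used as pairs.

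Gene models came from the GRCm38 annotation and start-site windows from RefSeq. The 9 members and the gene lists were chosen with earlier results of these data known. The named genes are the 9, the 4 most abundant other Slc22 genes and the 4 most abundant genes of each pathway list; further list members (Slco4c1, Abcb1a, Abcc4, Xdh, Slc5a8, Slc25a20, Bbox1 and the less abundant Slc22 genes) were named after their values were seen. Some genes that these rules name, and a gene list that holds some of them, are not reported here. For each gene the 2 most similar genes were those of highest Pearson r. Alternatives were the unstranded counts, RLE size factors, total counts, other filters, DESeq2 1.42.0, the 2 days alone, a replicate block, number format as a term, 1 format alone, and leaving out each library.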

Additional observations from a re-analysis of the deposited data

Results flagged for a closer look

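Altogether 3 values stood apart from the other libraries of their day, by the gap to the nearest library as a share of the day's range. Slc22a2 in day 3 replicate 5 had a log2 CPM of 5.50, against 7.61 to 7.79 in the other 4 libraries of day 3. Slc22a5 in day 0 replicate 4 had 8.14, against 8.41 to 8.45 in the other 3, and Slc22a5 in day 3 replicate 2 had 8.95, against 7.58 to 7.83 in the other 4. Of 27 groups of values examined, 3 had such a library, where chance gives about 1 in 20. Day 3 replicate 5 had the lowest and day 3 replicate 2 the highest proximal tubule marker sum of day 3, and the part of cell makeup was not tested.

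The difference between library formats itself differed between day 1 and day 3 for 2 genes in edgeR's interaction test, Slc22a8 (-1.998 for day 1 minus day 3, adjusted p = 0.018) and Slc22a12 (-2.81, adjusted p = 0.00279). The same direction was called for 9.1% of all genes, 7 of the 13 other Slc22 genes tested and 9 of 10 proximal tubule markers (median -3.16). For Slc22a8 the format difference was at day 1 (-1.89) and near 0 at day 3 (0.11). For Slc22a12 it was small at day 1 (-0.60) and large at day 3 (2.21).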

How the results depend on the processing

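The falls of Slc22a7, Slc22a13 and Slc22a19 against day 0 kept their direction and passed the test under every alternative in which they could be tested, with log2 fold changes at day 3 from -7.68 to -7.20, -6.10 to -3.995 and -8.23 to -5.75, libraries left out included. The filter of at least 10 counts in every library removed Slc22a13 and Slc22a19, which lowered the count of members called to 2 at day 1, to 2 for the formats at day 1 and to 1 for the formats at day 3. From day 1 to day 3, DESeq2 called 4 members and the 1-digit libraries alone 5, against 2, while the genes called lower over the whole table went from 1057 to 1685 and 2618. Genes called over the whole table numbered 8119 with 1-digit libraries alone against 4757 for day 3 against day 0. For day 3 against day 1 they numbered 5194 with 1-digit libraries and 831 with these 2 days alone, against 2276, and 1269 to 3350 when libraries were left out in turn. Leaving out each library gave 2 to 5 members for the formats at day 1, 0 to 4 at day 3 and 1 to 3 for the difference between days. Over all genes the calls for the formats at day 1 went from 2656 higher and 2345 lower to 1203 and 794 without day 1 replicate 2, and those at day 3 from 1470 and 1175 to 49 and 42 without day 3 replicate 5. The balance of calls over all genes also moved with total counts in place of TMM. From day 1 to day 3 it went from 1219 higher and 1057 lower to 1721 and 487. For day 3 against day 0 it went from 2783 and 1974 to 3625 and 1286, and for the formats at day 1 to 3909 and 1439.

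Several values turned direction with the libraries used. With 1-digit libraries alone Slc22a8 was at 0.009 at day 1 against day 0, and Slc22a5 at -0.43 at day 3 against day 1. With 3-digit libraries alone Slc22a4 was at -0.35 at day 1 against day 0, and at day 3 against day 1 Slc22a2 was at 0.27, Slc22a8 at 0.43 and Slc22a12 at 0.27. For this step all libraries gave -1.002 for Slc22a8 and -0.66 for Slc22a12, and 1-digit libraries alone gave -1.58 (adjusted p = 0.00198) and -2.55 (adjusted p = 0.000642). With total counts the day 1 format difference of Slc22a6 was 0.17. With libraries left out, Slc22a6 at day 1 ranged from -0.074 to 0.13 and its day 1 format difference from -0.20 to 0.21, Slc22a5 from day 1 to day 3 from -0.20 to 0.34, the format difference of Slc22a7 from -0.27 to 0.57 at day 1 and -0.62 to 0.67 at day 3, and that of Slc22a8 at day 3 from -0.29 to 0.62. The cause was not tested.

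With the replicate block the day 1 change of Slc22a2 was -0.87 (adjusted p = 0.0813) and the step of Slc22a19 from day 1 to day 3 was -2.04 (adjusted p = 0.0428), and it changed no other member's call. Of 13 pairs of same-numbered libraries, 4 had a correlation over 0.1, as did 10 of 52 other pairs. Without day 1 replicate 2 the step of Slc22a8 from day 1 to day 3 was called (-1.24, adjusted p = 0.0181). The low counts of Slc22a7, Slc22a13 and Slc22a19 at day 3 limit the precision of their folds.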
